A study of Mus musculus with 16 samples.

Results

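Neurons that carried a transcript of Nkx2-1 were picked out of a single-cell survey of the mouse hypothalamus and preoptic area (hypothalamus-POA). Of 55675 barcodes kept, 9679 counted as neurons because they held at least 3 of the 8 transcripts Snap25, Syt1, Stmn2, Snhg11, Meg3, Celf4, Map1b and Ndrg4. Of these neurons, 548 held at least 1 unique molecular identifier (UMI, a tag that counts 1 captured transcript) of Nkx2-1, which is 5.66% (95% exact interval 5.21 to 6.14%). They are called Nkx2-1+ neurons here. The rule read measured values, so the levels of Nkx2-1 and of the 8 neuronal transcripts describe the selection and carry no test against other neurons. Each Nkx2-1+ neuron was set beside 3 neurons of the same library with 0 Nkx2-1 UMIs and a similar total of UMIs, 1644 matched neurons in all.

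The survey used Drop-seq, in which a cell and a barcoded bead share a droplet, with 1 library per female mouse on a mixed CD-1;129P2 background. Of the wild-type mice 3 had oil and 5 had tamoxifen, and of the Esr1 cKO mice 4 had oil and 4 had tamoxifen, which makes 4 groups. Tamoxifen was injected under the skin at 0.1 mg/kg, or the corn oil vehicle alone, on 28 days in a row from 8 to 10 weeks of age, and tissue was taken 2 hr after the last injection, on 4 days with 4 mice a day and all groups in parallel. The question behind the groups was which responses to tamoxifen, a drug that binds estrogen receptors, need estrogen receptor alpha in the Nkx2-1 lineage. Esr1 cKO mice carried the floxed allele of Esr1, the gene of that receptor, together with a Cre transgene driven by Nkx2-1, and wild-type mice were littermates without Cre. Recombination is fixed in the lineage, so a cell that once used Nkx2-1 carries the deletion even where the transcript is now absent, and a neuron with the transcript need not have recombined. The counts come from the 3′ ends of transcripts and do not read the deleted stretch of Esr1, so they cannot show whether a cell lost the receptor.

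Nkx2-1 (chr12:56531935-56536908 in GRCm38.p6) encodes a homeodomain transcription factor that patterns the basal part of the developing hypothalamus and stays on in some neurons and in tanycytes of the tuberal and mammillary regions. Neurons of the arcuate nucleus that make kisspeptin, neurokinin B (the product of Tac2) and dynorphin (the product of Pdyn) lie in that territory, carry estrogen receptor alpha and drive pulses of gonadotropin release. Estrogen is known to hold down the genes of those peptides in the arcuate nucleus. NKX2-1 protein binds DNA at a short core read CTCAAG, or CTTGAG on the other strand, and estrogen receptors bind the arms GGTCA and TGACC set 3 bases apart, or a single arm.

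Promoters of 4 genes that the comparisons below turn on are shown, because 3 of them carry a peptide signal (Tac2, Pdyn and its processing enzyme Pcsk1) and Prlr is the receptor that the arcuate nucleus uses to sense prolactin. The sequences run from 250 bases before to 50 bases after a transcript start of RefSeq on GRCm38.p6, read 5′ to 3′ on the strand of the gene. Capitals mark the core CTCAAG in Pdyn and Prlr and the arm TGACC in Pcsk1, and the Tac2 window held none of the letters searched. The windows are chr2:129698609-129698908 (minus strand) for Pdyn, chr15:10176988-10177287 (plus strand) for Prlr, chr10:127724228-127724527 (plus strand) for Tac2 and chr13:75089607-75089906 (plus strand) for Pcsk1.
Pdyn: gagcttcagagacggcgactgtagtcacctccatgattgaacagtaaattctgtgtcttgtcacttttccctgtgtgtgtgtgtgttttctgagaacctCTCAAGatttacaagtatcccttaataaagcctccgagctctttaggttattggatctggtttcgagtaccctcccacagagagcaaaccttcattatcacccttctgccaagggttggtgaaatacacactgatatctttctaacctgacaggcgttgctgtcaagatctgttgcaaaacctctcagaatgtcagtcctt
Prlr: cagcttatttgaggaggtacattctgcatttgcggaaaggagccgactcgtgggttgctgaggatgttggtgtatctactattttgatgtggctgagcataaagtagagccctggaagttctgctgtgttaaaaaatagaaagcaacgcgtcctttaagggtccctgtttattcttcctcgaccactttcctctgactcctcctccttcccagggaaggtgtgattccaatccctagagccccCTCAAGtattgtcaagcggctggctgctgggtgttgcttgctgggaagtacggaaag
Tac2: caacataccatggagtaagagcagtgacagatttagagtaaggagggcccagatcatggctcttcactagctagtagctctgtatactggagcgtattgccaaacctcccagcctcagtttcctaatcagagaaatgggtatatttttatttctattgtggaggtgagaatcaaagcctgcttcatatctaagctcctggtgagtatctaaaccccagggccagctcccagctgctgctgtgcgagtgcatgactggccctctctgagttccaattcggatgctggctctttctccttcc
Pcsk1: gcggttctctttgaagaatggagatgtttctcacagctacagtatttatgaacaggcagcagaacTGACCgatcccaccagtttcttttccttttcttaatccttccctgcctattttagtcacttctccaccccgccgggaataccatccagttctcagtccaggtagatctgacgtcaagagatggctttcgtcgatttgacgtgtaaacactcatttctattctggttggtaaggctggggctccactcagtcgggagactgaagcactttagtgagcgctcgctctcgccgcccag
The core began 151 bases before the start in Pdyn and 7 bases before it in Prlr, and the arm in Pcsk1 began 185 bases before the start. The core, on either strand, stood in 5216 of 32817 such windows of all genes (15.9%), an arm GGTCA or TGACC in 13283 (40.5%) and both arms in that order, 3 bases apart, in 23 (0.0701%), which are among the windows with an arm. Of the 12 genes that differed by genotype below, 10 had a window, of which 2 held the core, 4 an arm and 0 the pair. Another Pdyn window and the other Prlr windows held none of these letters. A match of a few letters describes the window and shows no binding.

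The libraries held 2634253 to 8038158 UMIs on 5403 to 13515 barcodes, of which 1717573 to 5457033 UMIs lay in the barcodes kept. A pair of libraries stood apart, replicate 3 of wild-type oil and replicate 3 of Esr1 cKO tamoxifen, because every barcode in them had at least 100 genes, against at least 20 in the others. Of 142084 barcode sequences, 2832 occurred in more than 1 library, as did 520 of the kept ones, and 6 Nkx2-1+ neurons shared their sequence with a kept barcode of another library. A library gave between 7 Nkx2-1+ neurons (Esr1 cKO tamoxifen replicate 2) and 65 (Esr1 cKO oil replicate 3). Their median depth ran from 2304 to 4559.5 UMIs per library and that of the matched neurons from 2306 to 4603.5, while all neurons had medians of 1342.5 to 2560. The Nkx2-1+ neurons were thus among the deeper barcodes, and the matched neurons shared that depth.

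Nkx2-1 was caught as a single transcript in most of these cells: 458 of the 548 (83.6%) had 1 UMI, 76 had 2, 9 had 3 and 5 had 4 to 8. The selection also picked cells rich in the neuronal transcripts. Among barcodes with 2 neuronal transcripts, just outside the rule, 64 of 4281 (1.49%) had an Nkx2-1 UMI, at a median depth of 945 UMIs, and among those with 3, just inside it, 67 of 1980 (3.38%) did, at 861.5 UMIs. With all 8 the share was 181 of 1897 (9.54%), at 3820 UMIs. The neuronal transcripts were used by the rule in both sets of cells and are given as a description: Meg3 was found in 98.5% of Nkx2-1+ neurons and 94.6% of matched neurons, Snap25 in 76.5% and 76.6%, Snhg11 in 95.3% and 91.0%, and Syt1 in 66.1% and 68.2%.

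Outside neurons, the share of barcodes with an Nkx2-1 UMI was measured in classes defined by at least 3 of their own markers. Tanycytes, the radial glia-like cells that line the floor of the third ventricle, held it in 10 of 152 barcodes (6.58%, 95% exact interval 3.20 to 11.8%) at a median depth of 776 UMIs. Ciliated ependymal cells held it in 12 of 697 (1.72%) and astrocytes in 97 of 12767 (0.760%). Endothelial cells, which should lack the gene, held it in 0 of 4706, which allows a share of up to 0.0637% on a floor of 3 barcodes (the exact interval drawn in the plot by class reaches 0.0784%), at a median depth of 568.5 UMIs, and oligodendrocytes held it in 5 of 8679 (0.0576%). Neurons, at a median of 1729 UMIs, lay far above these last classes, and neurons with fewer than 3 markers of every other class still held it in 355 of 6686 (5.31%, 95% exact interval 4.78 to 5.87%). Neurons were deeper than every class named here, so these shares are not at matched depth. All intervals and floors cover counting error only.

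**Figure D1:**
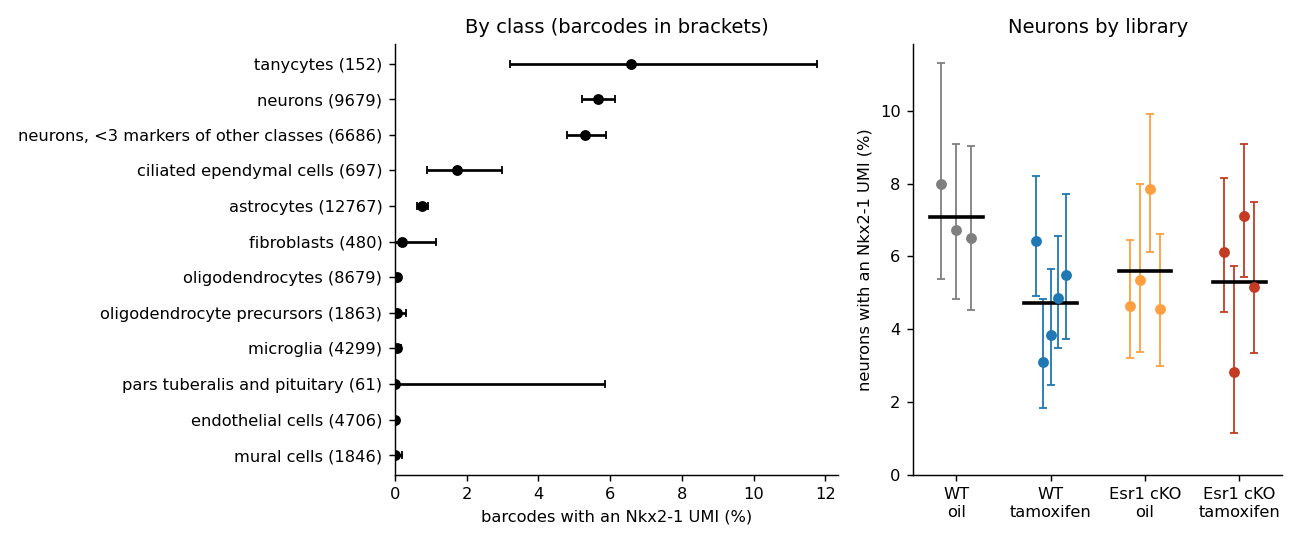
Left, share of barcodes with at least 1 Nkx2-1 UMI (percent) in each class, with 95% exact binomial intervals and the number of barcodes in brackets. Right, share of neurons with an Nkx2-1 UMI (percent) by library, 1 point per mouse with its interval, bars at the group means. Tanycytes and neurons lie highest, and the wild-type oil libraries lie between 6.51% and 7.98%.

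The share of neurons with Nkx2-1 was then compared between groups, with the mouse as the unit. In wild-type mice given oil the share was 7.98, 6.74 and 6.51% (7.07% ± 0.79, SD, n = 3), and in wild-type mice given tamoxifen it was 6.42, 3.09, 3.83, 4.85 and 5.47% (4.73% ± 1.32, SD, n = 5). These groups did not overlap, with the tamoxifen mice lower. The difference of 2.34 percentage points had p = 0.0536 by a two-sided exact permutation test and 0.214 after Benjamini-Hochberg adjustment over the 4 comparisons made. In Esr1 cKO mice the share was 4.63, 5.35, 7.85 and 4.55% with oil (5.60% ± 1.55, SD, n = 4) and 6.13, 2.82, 7.10 and 5.14% with tamoxifen (5.30% ± 1.83, SD, n = 4), and the groups overlapped (adjusted p = 0.829, exact permutation test). Esr1 cKO and wild-type mice overlapped with tamoxifen (adjusted p = 0.815, exact permutation test) and did not pass with oil (adjusted p = 0.343, exact permutation test). After each neuron was thinned to 500 UMIs the group means were 1.69, 1.20, 1.48 and 1.26%, and no comparison had an adjusted p below 0.876 by the same exact test. The summed level of Nkx2-1 over all neurons gave 0 calls in the same comparisons, and in summed counts fewer cells of a type and less RNA per cell cannot be told apart.

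Nkx2-1+ neurons more often held a transcript of the glutamate class and less often one of the GABA class than their matched neurons, a class being read from 1 UMI or more. Slc17a6, the vesicular glutamate transporter of hypothalamic neurons, was detected without Slc32a1, Gad1 or Gad2 in 175 of 548 Nkx2-1+ neurons and in 295 of 1644 matched neurons. Across the 16 libraries the share was lowest at 14.3%, median 32.1% and highest at 44.4% in Nkx2-1+ neurons, against 7.58%, 16.3% and 33.3% in matched neurons. The ranges overlapped, but within a library the Nkx2-1+ neurons were higher in 15 mice and equal in 1. The mean difference was 13.95 percentage points (SE 2.14, n = 16, adjusted p = 0.00113 by a two-sided exact sign-flip permutation test). The adjustment covers all transmitter and peptide shares tested. In endothelial cells, which should lack these genes, 26 of 4706 barcodes (0.552%) held Slc17a6 alone and 93 (1.98%) held GABA genes alone, at a median depth of 568.5 UMIs, while Nkx2-1+ and matched neurons each had a median of 3112.5 UMIs, so these shares are not at matched depth.

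The converse class, any of Slc32a1 (the vesicular GABA transporter), Gad1 or Gad2 (the GABA synthesis enzymes) without Slc17a6, made up 183 of the Nkx2-1+ neurons and 758 of the matched neurons. Its share ran from 10.7% through a median of 32.7% to 57.1% in Nkx2-1+ neurons and from 31.0% through 46.4% to 54.5% in matched neurons. It was lower in 14 of 16 libraries, by a mean of 12.9 points (SE 2.91, adjusted p = 0.00932, exact sign-flip permutation test). With 1 matched neuron per Nkx2-1+ neuron in place of 3 the mean change was -9.44 points and no longer passed. Cells with both kinds of transcript (29 and 77) and with neither (161 and 514) did not pass the test (adjusted p = 0.758 and 0.694, exact permutation). At this depth a cell with neither transcript may hold one that was not caught.

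Peptides separated the cells further. Cartpt, the precursor of the feeding peptide CART, was present at 3 or more UMIs in 95 Nkx2-1+ neurons and 154 matched neurons, a mean share per library of 15.9% against 8.81%, higher in 12 libraries and lower in 3 (adjusted p = 0.0196, exact sign-flip permutation test). Pdyn was present in 38 and 38 cells, 5.94% against 2.56%, higher in 12 libraries and lower in 3 (adjusted p = 0.0316, exact permutation). The 5.94% pools the groups, whose means with oil and tamoxifen were 4.07% and 3.81% in wild-type and 6.88% and 9.07% in Esr1 cKO. Bdnf, a neurotrophin made in the ventromedial nucleus, was present in 27 and 29 cells, 4.82% against 1.58%, higher in 11 and lower in 3 (adjusted p = 0.0196, exact permutation). All 3 transcripts marked a minority of the Nkx2-1+ neurons.

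In the other direction, the magnocellular hormones were almost missing. Avp, vasopressin, was present at 3 or more UMIs in 3 of 548 Nkx2-1+ neurons and 126 of 1644 matched neurons, lower in 16 of 16 libraries (0.696% against 7.46%, adjusted p = 0.00113, exact sign-flip permutation test). Oxt, oxytocin, was present in 1 and 27 cells, lower in 10 libraries (adjusted p = 0.0120, exact permutation). Slc6a3, the dopamine transporter, was detected in 2 and 23 cells (adjusted p = 0.012, exact permutation). Agrp, the orexigenic peptide of the arcuate nucleus, was at 3 or more UMIs in 0 of 548, which allows a share of such cells of up to 0.547% on a floor of 3 cells, and in 14 of 1644 (adjusted p = 0.154, exact permutation), while Pomc, made by arcuate neurons that curb feeding, was present in 14 and 10 (adjusted p = 0.114, exact permutation). Tac2 was present in 37 and 71 cells, 6.27% against 4.34%, higher in 11 libraries and lower in 4, which did not pass (adjusted p = 0.297, exact permutation).

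**Figure D2:**
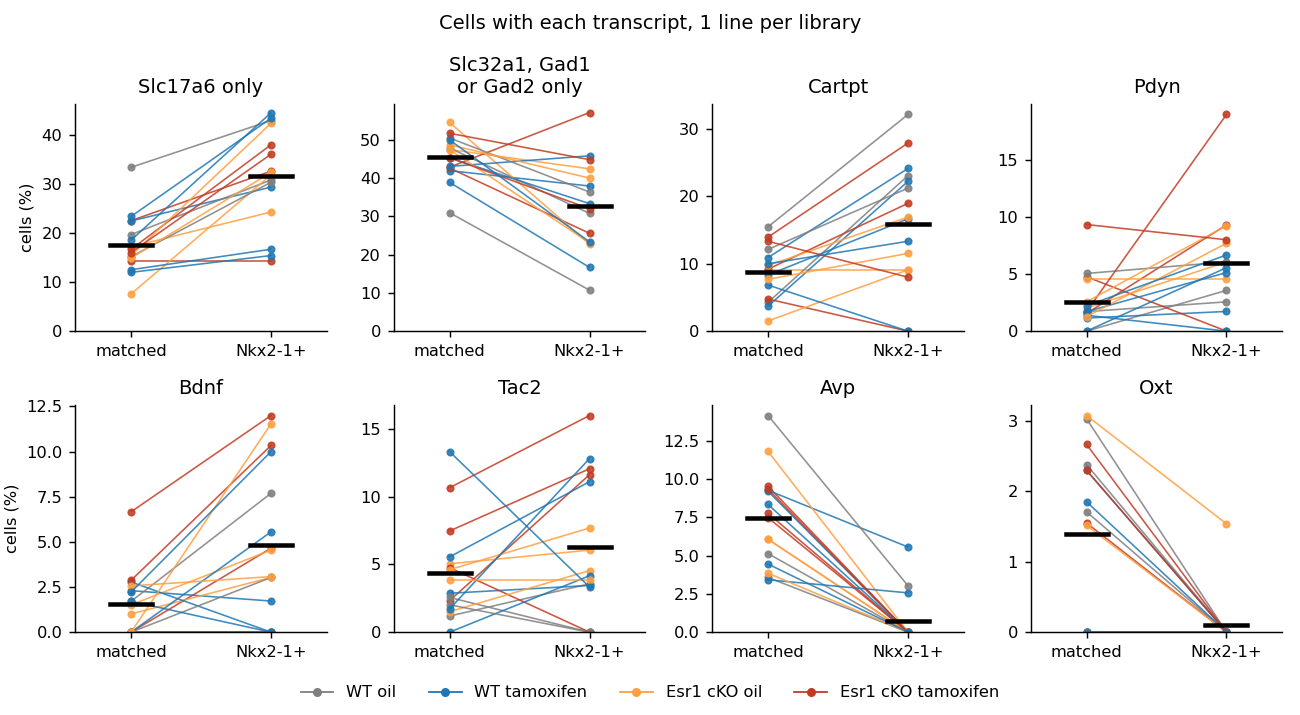
Share of cells (percent) with each transcript in matched neurons and in Nkx2-1+ neurons, 1 line per library coloured by group, bars at the means over 16 libraries. Slc17a6-only cells rise from a mean of 17.6% to 31.5% and cells with only Slc32a1, Gad1 or Gad2 fall from 45.6% to 32.7%. Avp falls in every library.

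Markers of other cells moved with the selection and belong beside these results. Of the 548 Nkx2-1+ neurons, 76 (13.9%) held at least 3 tanycyte markers, against 122 (7.42%) of the matched neurons. The tanycyte markers summed to 281 to 2743 CPM (counts per 1000000 UMIs, median 1197) in Nkx2-1+ neurons and 364 to 893 CPM (median 531) in matched neurons, higher in 13 of 16 libraries. In the sums over all libraries 10 of the 12 markers were higher, none was at 0, and the most abundant, Prdx6, stood at 385 against 191 CPM. Oligodendrocyte markers went the other way, with at least 3 in 85 cells (15.5%) against 345 (21.0%), 0 of 11 higher, a median sum of 731 against 2372 CPM and Mbp on top at 390 against 650 CPM. Endothelial markers summed to a median of 544 against 1421 CPM and mural markers to 74.5 against 432 CPM, while astrocyte markers were alike in share (20.6% and 18.7%). Of the pars tuberalis and pituitary list, Cga, Gh, Prl and Cyp2f2 were at 0 in Nkx2-1+ neurons.

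Barcodes with markers of another class were left out at 2 limits. At the planned limit of 2 markers, 153 Nkx2-1+ and 459 matched neurons remained. The Slc17a6-only difference was then 11.8 points and did not pass (41 and 69 cells, adjusted p = 0.0858, exact sign-flip permutation test), while GABA-only cells (60 and 239) were lower by 14.3 points (adjusted p = 0.0119, exact permutation) and Avp cells were 0 and 37 (adjusted p = 0.00903, exact permutation). Cartpt, Pdyn, Bdnf and Oxt did not pass at that limit. At a limit of 3 markers, chosen after the data had been seen, 355 Nkx2-1+ and 1065 matched neurons remained. Slc17a6-only cells were 118 and 224, higher by 12.6 points (adjusted p = 0.0079, exact sign-flip permutation test), and GABA-only cells 140 and 557, lower by 14.6 points (adjusted p = 0.00151, exact permutation). Cartpt, Pdyn and Avp kept their calls (adjusted p = 0.0367, 0.0437 and 0.00151, exact permutation), while Bdnf (adjusted p = 0.411) and Oxt (adjusted p = 0.0578) did not by the same exact test. Leaving out both libraries that stood apart gave 13.3 and -13.2 points for the first pair of classes (adjusted p = 0.00452 and 0.026, exact permutation).

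Levels were next compared by summing UMIs over the Nkx2-1+ neurons and over the matched neurons of each library, 1934289 and 5756273 UMIs in all. An edgeR quasi-likelihood fit with the library as a block tested 4355 genes, of which 64 were higher (1.47%) and 77 lower (1.77%) at an adjusted p under 0.05, in all 141 (3.24%). Without barcodes that held 3 or more markers of another class 22 of 2629 genes passed (0.837%), 9 higher (0.342%) and 13 lower (0.494%). Without barcodes holding 2 or more such markers, the stricter rule planned at the start, 1 of 461 genes passed (0.217%), 0 higher (0.0%) and 1 lower (0.217%). Among the genes called higher, Pdyn ran from 18.9 CPM through a median of 108 to 411 in Nkx2-1+ neurons and from 21.9 through 53.3 to 162 in matched neurons, higher in 14 of 16 libraries (log2 fold change 1.33, SE 0.23, edgeR adjusted p = 0.000225). These Pdyn values pool the genotypes, at 18.9 to 115 CPM in wild-type and 93.8 to 411 CPM in the Esr1 cKO libraries compared below. Bdnf ran from 26.3 through 87.7 to 248 CPM against 7.82 through 43.9 to 115 CPM, higher in 13 libraries (1.15, SE 0.20, edgeR adjusted p = 0.00023). Ppp1r17, a phosphatase inhibitor gene, ran from 39.6 through 106 to 208 CPM against 23.5 through 49.2 to 128 CPM, higher in 14 (1.16, SE 0.16, edgeR adjusted p = 1.49e-05). For these 3 genes the ranges overlapped. The rule that picked them required most libraries to move the same way, so their library counts add no weight. With barcodes holding other markers left out and a lower filter the log2 fold changes were 0.995, 0.70 and 0.97, all still past the threshold.

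Slc17a6 ran from 43.6 through 304 to 442 CPM against 72.5 through 169 to 352 CPM, higher in 14 libraries (log2 fold change 0.75, SE 0.11, edgeR adjusted p = 2.84e-05), although with those barcodes left out and the lower filter it was 0.41 (edgeR adjusted p = 0.0646). Gad1 was lower in 15 of 16 libraries (log2 fold change -0.80, edgeR adjusted p = 0.00181), as were Gad2 (-0.72, 0.000318) and Slc32a1 (-0.78, 0.011) in 13 each, and all 3 passed in that last fit too. Levels and cell shares pointed the same way for glutamate and GABA genes, but both read the same UMIs of the same cells and are not independent. Cartpt ran from 0 through 696 to 6949 CPM against 92.3 through 452 to 983 CPM, higher in 12 libraries (1.20, SE 0.23, edgeR adjusted p = 0.00117). Tac2 ran from 0 through 996 to 5359 CPM against 8.47 through 202 to 2879.9 CPM, higher in 11 (1.71, SE 0.38, edgeR adjusted p = 0.0044). Both were spread widely between libraries, and in the fit with the lower filter, described next, neither passed (edgeR adjusted p = 0.0975 and 0.159). The Tac2 values also pool the genotypes. In the libraries of the genotype comparison below they ran from 0 to 1288 CPM in wild-type and from 1313 to 5359 CPM in Esr1 cKO.

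Among the genes named as higher, Col23a1, a transmembrane collagen on the tanycyte list, had a log2 fold change of 1.73 (edgeR adjusted p = 1.21e-08), Sox9, the transcription factor of astroglia, 1.25 (edgeR adjusted p = 2.84e-05) and Prdx6, also on the list, 0.93. With the barcodes that held 3 or more markers of another class left out and the lower filter, the changes were -0.40, -1.51 and 0.05, none of them past the threshold. That step removes barcodes by Col23a1 and Prdx6 themselves, so it does not measure them independently. Fbxo2, Ifi27, 6330403K07Rik, Tmem35 and Ildr2 completed the 12 genes named as higher, and of these 5 Ifi27 kept its call in that fit (0.997, edgeR adjusted p = 0.0267).

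Among the genes named as lower, Avp was the neuronal gene, and it ran from 0 through 20.4 to 1191 CPM in Nkx2-1+ neurons and from 322 through 3280 to 10554 CPM in matched neurons, lower in 16 of 16 libraries (log2 fold change -5.58, SE 0.37, edgeR adjusted p = 4.82e-13). Of the 238 Avp UMIs in Nkx2-1+ neurons, 158 lay in 1 cell. Others were Hbb-bs of red blood cells and Crip1, Igfbp7, Tm4sf1, Slc2a1 and Itm2a, which vessel cells express, with log2 fold changes between -2.53 and -1.46. The summed markers of vessel cells given above moved in the same direction. With the barcodes that held 3 or more markers of another class left out and the lower filter, Hbb-bs was at 0.67, Crip1 at 0.20 and Igfbp7 at 0.38, so their direction turned, Slc2a1 was at -0.68 and Itm2a at -0.07, and none of these 5 passed (edgeR). Tm4sf1 had too few UMIs left to be tested. Itm2a and Tm4sf1 are on the lists by which those barcodes were removed.

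Transcription factors are scarce in UMIs, and most failed the filter of edgeR. A lower filter of 30 UMIs over all sums, chosen after the data had been seen, tested 14171 genes with a robust estimate of the spread and called 707 (4.99%), 102 higher (0.72%) and 605 lower (4.27%), and the median log2 fold change of all genes was -0.12. With barcodes that held 3 or more other markers left out it tested 11695 genes and called 122 (1.04%), 12 higher (0.103%) and 110 lower (0.941%), at a median of -0.13. Changes below are read against those medians. The sums hold 3 matched neurons for each Nkx2-1+ neuron, so a scarce gene can pass this filter through the matched neurons alone. Such a gene can hardly be called higher, so the counts of higher and lower genes under this filter, by list as well, are partly set by it.

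Of the transcription factors that mark medial and basal hypothalamus, 18 of 22 were tested, 4 were higher and 1 lower (median log2 fold change -0.01). Tbx3, which maintains the identity of arcuate neurons, ran from 0 through 102 to 291 CPM in Nkx2-1+ neurons and from 10.9 through 40.1 to 104 CPM in matched neurons. It was higher in 13 of 16 libraries (log2 fold change 1.30, SE 0.17, edgeR adjusted p = 1.11e-11), and still so with other-marker barcodes left out (1.36, edgeR adjusted p = 5.41e-05). Rax, a tanycyte and early hypothalamic factor that is also on the tanycyte list, was higher at 1.66 (edgeR adjusted p = 1.26e-05, 68 and 57 UMIs) and was too scarce to test once those barcodes were removed. Nkx2-4, the closest relative of Nkx2-1, was higher at 1.12 (edgeR adjusted p = 0.0164), but 0.17 without those barcodes (edgeR adjusted p = 0.968), and Sox14, which encodes another developmental factor, was higher at 1.31 (edgeR adjusted p = 0.0408) and had 1.37 without them (edgeR adjusted p = 0.194). Isl1, Six6 and Fezf1 of the same list did not pass. Six3 passed only with those barcodes left out, where it was lower at -1.13 (edgeR adjusted p = 0.00201).

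Otp, which specifies paraventricular, supraoptic and other neuroendocrine neurons, was the gene of that list that was lower: 12 UMIs against 207, lower in 15 libraries and higher in 0 (log2 fold change -2.52, SE 0.37, edgeR adjusted p = 2.06e-09), and -2.44 without other-marker barcodes (edgeR adjusted p = 0.000155). In the mammillary list 9 genes were tested, of which 1 was higher and 2 lower (median -0.38). Foxb1, a factor of the mammillary body, ran from 0 through 69.9 to 311 CPM against 0 through 12.3 to 168 CPM, higher in 11 libraries and lower in 4 (1.57, SE 0.26, edgeR adjusted p = 4.13e-06). It was 1.66 without other-marker barcodes (edgeR adjusted p = 3.09e-06). The lower ones were Irx3 and Irx5, with 2 and 1 UMIs in Nkx2-1+ neurons, so that only a ratio can be given: matched neurons had 7.06 times the Irx3 share (95% exact interval 1.84 to 60.2) and 12.8 times the Irx5 share (2.16 to 517). Without other-marker barcodes 4 genes of the mammillary list were tested and 0 were lower, so neither Irx3 nor Irx5 kept its call.

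Of the factors of paraventricular, preoptic and suprachiasmatic neurons, 0 of 13 tested were higher, 7 were lower and 6 did not pass (median -0.73), and the counts were 0 higher and 8 lower without other-marker barcodes (median -0.72). Zic1, a factor of septal and preoptic neurons, ran from 0 through 10.9 to 96.4 CPM in Nkx2-1+ neurons and from 16.02 through 57.0 to 322 CPM in matched neurons, lower in 14 of 16 libraries (log2 fold change -2.05, SE 0.23, edgeR adjusted p = 6.18e-17). Zic2 (-2.37), Zic5 (3 UMIs against 98), Lhx9 (-1.34), Nr4a2 (-1.71), Rora (-0.62) and Rorb (-0.42) were lower too. Sim1, the partner of Otp in paraventricular neurons, did not pass. Of 9 telencephalic and thalamic factors tested, 0 were higher and 6 lower (median -0.95), among them Meis2 (-1.67, edgeR adjusted p = 6.02e-06) and Tcf7l2 (-0.95, edgeR adjusted p = 9.8e-07). Pou4f1 of the habenula had 0 UMIs against 47, at least 5.26-fold lower against a floor of 3 UMIs over all libraries, and so passed the filter through matched neurons alone. Of the 9 factors of GABAergic forebrain and hypothalamic neurons tested, none passed in either direction (median 0.01).

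**Figure D3:**
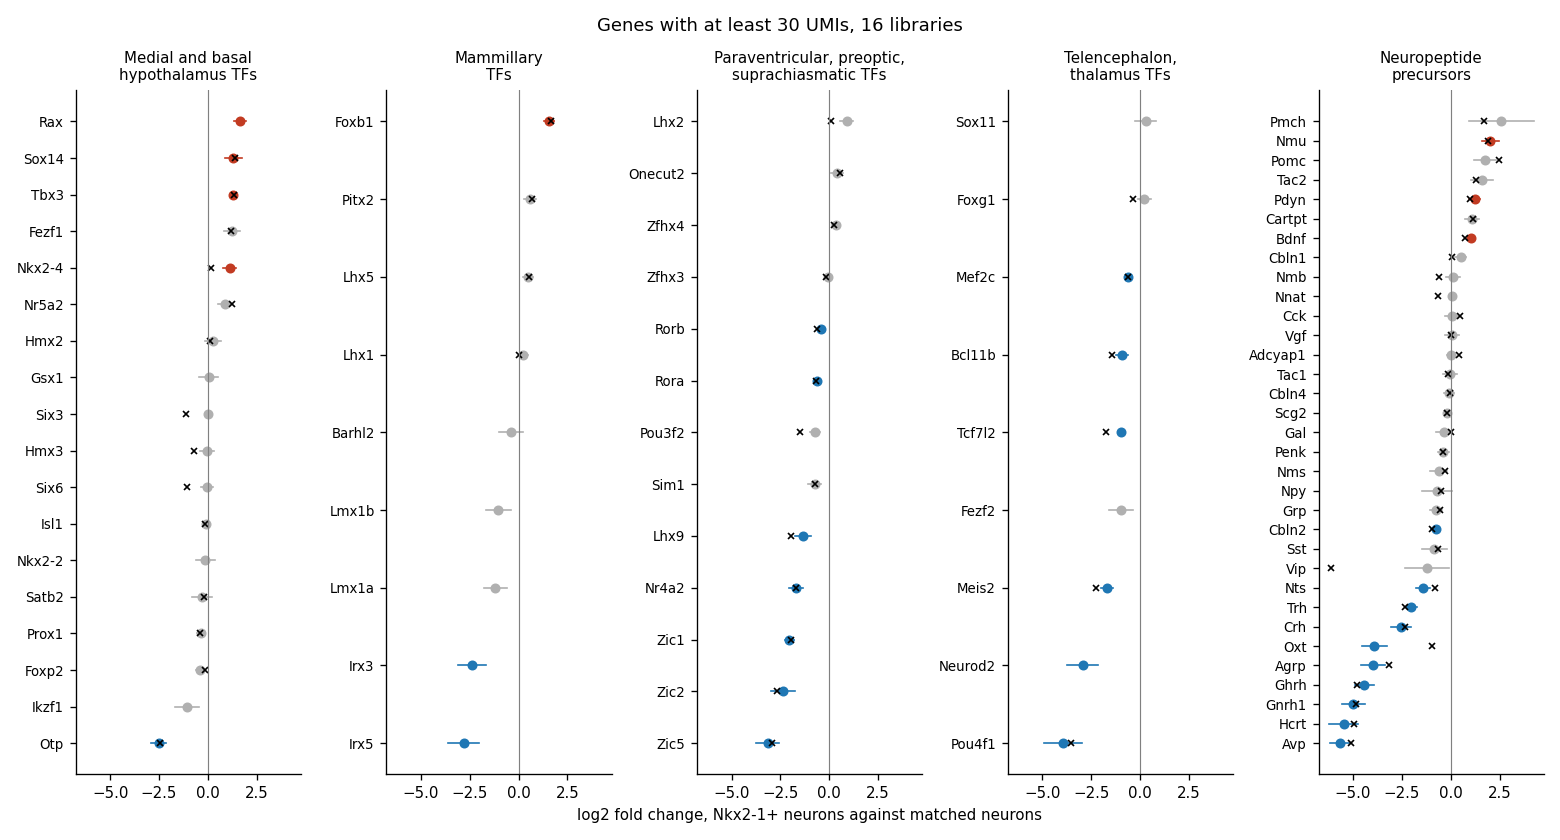
Log2 fold change of listed transcription factors and neuropeptide precursors, Nkx2-1+ against matched neurons, for genes with at least 30 UMIs over the sums of 16 libraries. Circles with bars are the edgeR value and its SE, red where higher and blue where lower at an adjusted p under 0.05, grey otherwise, and crosses are the value without barcodes holding 3 or more markers of another class. Tbx3 and Foxb1 lie to the right with and without those barcodes, and Otp, Zic1, Trh, Hcrt and Avp to the left. The values of genes with 3 or fewer UMIs on 1 side depend on the prior count of the fit.

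Of 33 neuropeptide precursors tested with the lower filter, 3 were higher (Pdyn, Bdnf and Nmu) and 10 lower (median -0.33). Nmu, neuromedin U, had 51 UMIs against 25 (log2 fold change 2.03, SE 0.43, edgeR adjusted p = 0.000158), higher in 8 libraries and lower in 5. Trh, the releasing hormone of the thyroid axis, had 23 against 276 (-2.03, edgeR adjusted p = 4.28e-09), Crh 6 against 116 (-2.54, edgeR adjusted p = 4.37e-05), Hcrt of the orexin neurons 9 against 1506 (-5.49, edgeR adjusted p = 0.00126) and Oxt 44 against 2653 (-3.91, edgeR adjusted p = 0.00134). Nts (-1.43) and Cbln2 (-0.76) were lower as well. Agrp had 2 UMIs against 140, Ghrh, the growth hormone releasing hormone, 3 against 243 and Gnrh1, the driver of gonadotropin release, 3 against 397, of which 382 lay in 1 matched cell. Matched neurons thus had 23.5 times the Agrp share (95% exact interval 6.39 to 196) and 27.2 times the Ghrh share (9.20 to 133). Of the hormones, 98 of the Ghrh, 740 of the Hcrt and 1010 of the Oxt UMIs of matched neurons lay in 1 cell each. In matched neurons 4 cells had 3 or more Hcrt UMIs. The exact intervals treat the UMIs of 1 cell as independent and cover counting error only. Without other-marker barcodes 3 precursors were higher and 8 lower. Trh (-2.36) and Hcrt (-4.94) were still called then, while Crh (edgeR adjusted p = 0.0541), Oxt (0.187), Nts (0.569) and Cbln2 (0.0646) were not. Penk, Sst and Gal did not pass.

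Among genes of transmitter synthesis and transport 15 were tested, 1 was higher (Slc17a6) and 7 lower (median -0.83), and without other-marker barcodes 0 of 11 were higher and 3 lower. Th, the rate-limiting enzyme of dopamine synthesis, had 40 UMIs against 238 (log2 fold change -1.04, edgeR adjusted p = 0.00333) and Slc18a2, the vesicular monoamine transporter, 77 against 463 (-1.07, edgeR adjusted p = 2.83e-06), and neither kept its call without those barcodes. Of 32 hormone and peptide receptors tested, Prlr (0.48, edgeR adjusted p = 0.00975) and Npy5r, a neuropeptide Y receptor (1.23, edgeR adjusted p = 0.015), were higher and Gper1 was lower (3 UMIs against 53), with 0 of 28 called without other-marker barcodes. Esr1 was detected in 92 Nkx2-1+ neurons (16.8%) and 203 matched neurons (12.3%). Its level ran from 22.3 through 80.3 to 175 CPM against 10.4 through 50.6 to 104 CPM, higher in 10 libraries and lower in 6, which did not pass (log2 fold change 0.65, SE 0.20, edgeR adjusted p = 0.0672).

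Of 14 genes listed as estrogen-responsive and tested with the lower filter, 5 were higher (Pdyn, Prlr, Cited1, Nell2 and Rprm) and 0 lower, at a median of 0.43 against -0.12 for all genes. The list was chosen with earlier results of these data known. This comparison pools the genotypes, and Pdyn, Prlr and Cited1 also differed between genotypes within Nkx2-1+ neurons. Without other-marker barcodes 2 of 13 were higher, Pdyn and Rprm. Cited1, a cofactor of estrogen receptor, ran from 43.6 through 110 to 290 CPM against 10.9 through 69.7 to 175 CPM (log2 fold change 0.90, edgeR adjusted p = 8.89e-08), but did not pass without those barcodes (0.54, edgeR adjusted p = 0.332). Of 19 immediate early genes, which rise with recent activity and with dissociation, 0 were higher and 2 lower (Nr4a1 and Klf4), and 0 passed without other-marker barcodes.

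Peptide and transmitter transcripts were also counted together in single cells. Of the 38 Nkx2-1+ neurons with 3 or more Pdyn UMIs, 27 also held Slc17a6 and 1 Slc32a1, and 20 also held 3 or more Tac2 UMIs, which is 52.6% of the Pdyn cells and 54.1% of the Tac2 cells. These counts pool the genotypes. The 25 Tac2 cells of Esr1 cKO had a median of 7 Pdyn UMIs (0 to 18), and the 12 of wild-type a median of 1 (0 to 3). Of the 38 matched neurons with 3 or more Pdyn UMIs, 26 held Slc17a6, 5 Slc32a1 and 15 held 3 or more Tac2 UMIs. Of the 37 Tac2 cells, 29 held Tbx3, as did 12 of the 14 Pomc cells. Tac2 and Pomc met in 0 cells and Tac2 and Cartpt in 1, while 10 cells held both Cartpt and Pomc, which is 71.4% of the Pomc cells and 10.5% of the Cartpt cells. These counts are small, and no test of them was made.

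Within Nkx2-1+ neurons the genotypes were then compared, in 15 libraries with at least 10 such cells. Esr1 cKO tamoxifen replicate 2, with 7 cells, was not in the fit. Of 3839 genes tested, 12 were higher in Esr1 cKO (0.313%) and 0 lower (0.0%). They were Tac2, Pdyn, Vgf and Chgb (granule proteins), Pcsk1 (a convertase that cuts peptide precursors), Prlr, Npy2r, Cited1, Nov, Hs6st2, Plagl1 and Hsph1. For 5 genes (0.13% of those tested) the wild-type and Esr1 cKO libraries did not overlap, namely Tac2, Nov, Pcsk1, Npy2r and Hs6st2, all higher in Esr1 cKO. The library that was not in the fit, with 22944 UMIs over its 7 cells, held 0 UMIs of Tac2, Nov and Pcsk1 and 2 of Hs6st2, so it lay at or below the lowest wild-type library for those genes, and it held 6 UMIs of Npy2r.

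Tac2 stood at 108, 12.6 and 0 CPM in wild-type oil libraries and at 121, 704, 50.8, 1288 and 168 CPM with tamoxifen. In Esr1 cKO it stood at 1893, 2003, 2483 and 1313 CPM with oil and at 5359, 5211 and 2625 CPM with tamoxifen. Every Esr1 cKO library in the fit lay above every wild-type library, the closest being 1313 and 1288 CPM (log2 fold change 4.58, SE 0.60, edgeR adjusted p = 0.000515). Nov (also Ccn3, a secreted matrix-associated protein) had 0 UMIs in all 8 wild-type libraries and 181, 275, 202 and 58.6 CPM with oil and 314, 478 and 59.4 CPM with tamoxifen in Esr1 cKO. Its 253 UMIs against 0 make it at least 79.0-fold higher against a floor of 3 UMIs over the wild-type libraries (edgeR adjusted p = 0.000535).

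Pcsk1 stood at 47.8, 12.6 and 29.8 CPM (oil) and 57.3, 49.1, 50.8, 52.6 and 51.1 CPM (tamoxifen) in wild-type, and at 272, 229, 151 and 117 CPM (oil) and 279, 455 and 198 CPM (tamoxifen) in Esr1 cKO. No Esr1 cKO library in the fit reached down into the wild-type range (log2 fold change 2.67, SE 0.28, edgeR adjusted p = 4.14e-05). Pdyn stood at 59.8, 18.9 and 96.7 CPM and at 89.1, 115, 50.8, 114 and 102 CPM in wild-type, and at 151, 260, 184 and 93.8 CPM and at 314, 411 and 139 CPM in Esr1 cKO. Only the lowest Esr1 cKO library of the fit lay within the wild-type range (1.61, SE 0.30, edgeR adjusted p = 0.018). Leaving out any 1 of 4 libraries, wild-type oil replicates 1 and 2, Esr1 cKO oil replicate 3 and Esr1 cKO tamoxifen replicate 3, ended the Pdyn call.

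The other genes were chosen after their values had been seen. Vgf stood between 0 and 98.3 CPM in wild-type and between 70.3 and 505 CPM in Esr1 cKO (log2 fold change 2.40, edgeR adjusted p = 0.000515). Prlr, which signals prolactin back to the arcuate nucleus, stood at 35.9, 18.9 and 29.8 CPM with oil and 108, 197, 76.2, 228 and 94.9 CPM with tamoxifen in wild-type, and between 107 and 347 CPM in Esr1 cKO (1.90, SE 0.34, edgeR adjusted p = 0.011). Npy2r, a receptor of neuropeptide Y, stood at 0 to 25.4 CPM in wild-type and 49.5 to 158 CPM in Esr1 cKO (2.32, SE 0.40, edgeR adjusted p = 0.011), and Hs6st2, a heparan sulfate sulfotransferase, at 94.9 to 228 and 258 to 478 CPM (0.99, edgeR adjusted p = 0.0395). With library numbers in successive sets of 4 as a block, Hs6st2, Plagl1 and Hsph1 did not pass (edgeR).

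**Figure D4:**
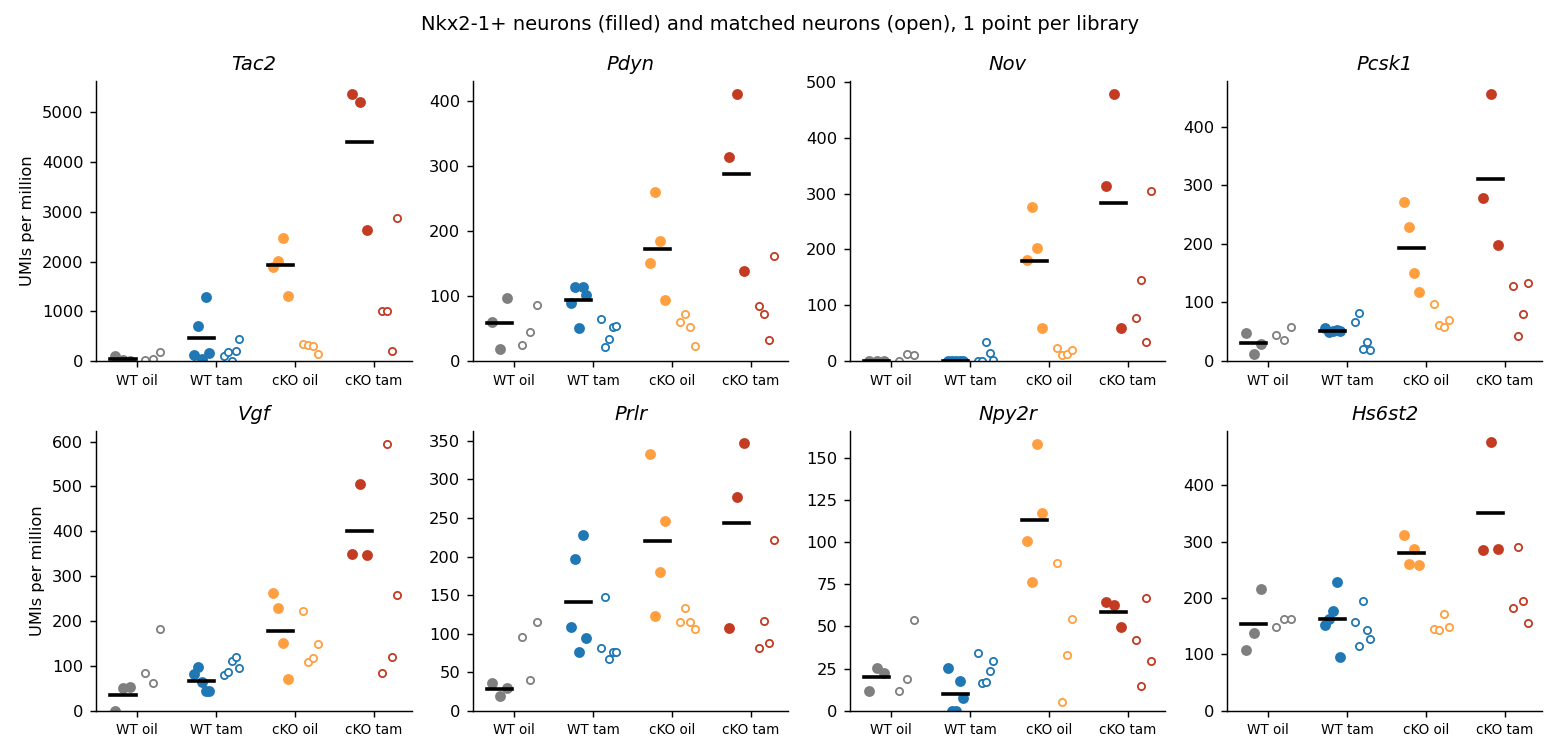
CPM of 8 genes by group, 1 point per library, filled for Nkx2-1+ neurons (15 libraries, bars at the means) and open for matched neurons (16 libraries). Tac2, Nov, Pcsk1, Npy2r and Hs6st2 do not overlap between genotypes in the filled points, which leave out Esr1 cKO tamoxifen replicate 2 (7 cells). Nov is at 0 in every wild-type library of Nkx2-1+ neurons.

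Depth and markers of other cells overlapped between the genotypes. The median depth of Nkx2-1+ neurons was 2399 to 4559.5 UMIs in wild-type libraries (median 2937) and 2304 to 4029 in Esr1 cKO libraries (median 3144). The tanycyte markers summed to a median of 1513 CPM in wild-type and 1004 CPM in Esr1 cKO, and oligodendrocyte markers to 762 and 675 CPM, with overlapping ranges. With barcodes that held 2 or more other markers left out, the planned limit, 0 of 1058 genes passed (0.0%, edgeR, 68 at an unadjusted p under 0.05). With the limit at 3 or more, 4 of 1982 passed (0.202%), 3 of them among the 12. Tac2 was then at 4.12 (edgeR adjusted p = 0.093) and Pcsk1 at 2.45 (edgeR adjusted p = 0.0197). Nov had an edgeR adjusted p of 0.061, with 0 UMIs in wild-type as with all cells. Without the pair of libraries that stood apart 13 genes passed. Leaving out single libraries gave between 5 and 15, with 5 without wild-type oil replicate 2 and 7 without Esr1 cKO oil replicate 3 or Esr1 cKO tamoxifen replicate 3, while Tac2, Nov and Pcsk1 passed each time.

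The genotype genes were then followed into single cells. In Esr1 cKO, 25 of 279 Nkx2-1+ neurons (8.96%) had 3 or more Tac2 UMIs, from 5 through a median of 121 to 291 UMIs. In wild-type, 12 of 269 (4.46%) did, from 3 through 19.5 to 42 UMIs. Of these 12 cells 11 came from mice given tamoxifen and 1 from a mouse given oil, and of the 25 Esr1 cKO cells 16 and 9. These shares pool mice, and mouse by mouse the genotypes overlapped, at 0 to 12.8% in wild-type and 0 to 16% in Esr1 cKO. The mean share of Tac2 cells was 1.19% with oil and 6.98% with tamoxifen in wild-type, and 5.54% and 9.92% in Esr1 cKO. Set against the total of the cell, these were 16.5 through 217 to 379 Tac2 UMIs per 10000 in Esr1 cKO and 6.74 through 56.6 to 113 in wild-type, at median depths of 5986 and 3641 UMIs. The Tac2 cells of Esr1 cKO held 14.6% of the UMIs of all Esr1 cKO Nkx2-1+ neurons but 94.9% of the Nov, 79.5% of the Pcsk1, 70.7% of the Pdyn, 67.7% of the Vgf, 46.3% of the Chgb and 43.8% of the Prlr UMIs, and 0.980% of the Npy2r UMIs. The 12 Tac2 cells of wild-type held 4.76% of the UMIs, and 25.6% of the Pcsk1, 29.8% of the Prlr, 19.2% of the Pdyn and 5.92% of the Chgb UMIs. Nov was found in 23 of the 25 and in 0 of the 12 wild-type Tac2 cells. All 17 Kiss1 UMIs of Esr1 cKO lay in 13 of the 25, while the 3 wild-type Kiss1 UMIs lay outside Tac2 cells. Esr1 transcript was found, at 1 UMI or more, in 19 of the 25 and 6 of the 12, sets that differed in depth as given above. No background share of Esr1 is given here, so these counts describe detection only.

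With all cells of 3 or more Tac2 UMIs left out, 1 gene of 3181 passed (0.0314%), Npy2r (log2 fold change 2.46, edgeR adjusted p = 0.0443). Plagl1 was at 1.63 (1.64 with all cells) and Prlr at 1.55 (1.90 with all cells), and neither passed (edgeR adjusted p = 0.220 for both). Vgf was then at 1.16, Cited1 at 0.90, Hsph1 at 0.49, Hs6st2 at 0.45 and Chgb at 0.33, and Tac2, Nov, Pcsk1 and Pdyn had too few UMIs left to be tested. That step removes cells by Tac2 itself, and it takes 14.6% of the UMIs in Esr1 cKO against 4.76% in wild-type. The loss of Tac2, and of genes whose UMIs lay mostly in those cells, was set by the removal. The step therefore does not test where the genotype difference lies. Among matched neurons, 43 Esr1 cKO cells had 3 or more Tac2 UMIs, at 8.55 through 31.9 to 312 per 10000, and 28 wild-type cells at 6.38 through 24.1 to 92.8. In those neurons 0 of 8433 genes differed by genotype (0.0%, edgeR, 367 at an unadjusted p under 0.05), with Tac2 at 2.30 (edgeR adjusted p = 0.776). In all neurons 1 of 13671 did (0.00731%), Nov at 2.42 (edgeR adjusted p = 0.0303). The difference between Nkx2-1+ and matched neurons in the genotype effect was called for 0 of 4355 genes (0.0%, edgeR, 210 at an unadjusted p under 0.05), Pcsk1 having a difference of 1.65 (edgeR adjusted p = 0.605), so the genotype genes were not shown to be particular to Nkx2-1+ neurons.

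**Figure D5:**
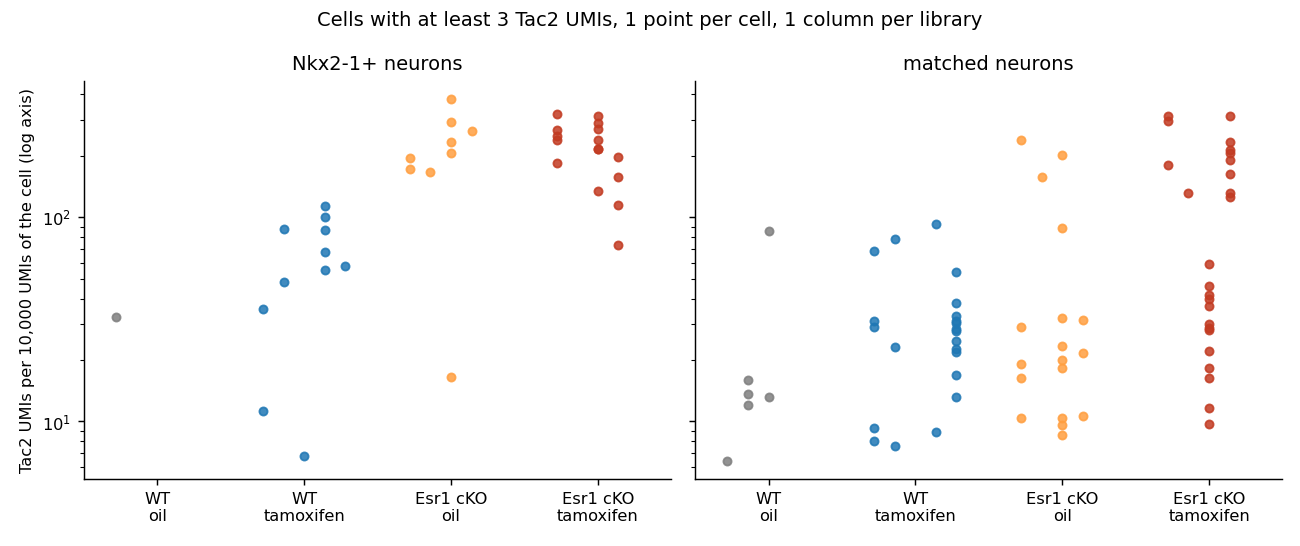
Tac2 UMIs per 10000 UMIs of the cell, on a log axis, for every Nkx2-1+ neuron and every matched neuron with at least 3 Tac2 UMIs, 1 point per cell, by group with 1 column per library. Cells of a library share their mouse. The Nkx2-1+ neurons of Esr1 cKO reach 379 per 10000 and those of wild-type 113.

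By list, beside 0.313% of all genes tested, 4 of 9 estrogen-responsive genes tested differed by genotype (Tac2, Pdyn, Prlr and Cited1, all higher in Esr1 cKO, median log2 fold change 0.54 against -0.01 for all genes), 3 of 16 neuropeptide precursors (Tac2, Pdyn and Vgf, median 0.54) and 2 of 7 receptors (Prlr and Npy2r). Of 13 immediate early genes, 6 transmitter genes and the transcription factor lists, 0 were called. The lists were chosen with earlier results of these data known, and Tac2, Pdyn and Prlr each stand on more than 1 of them, so these counts are a description. With Tac2 cells left out, Npy2r was the only one of the listed genes named here that passed, while Tac2 and Pdyn could not be tested. Pomc had a large but uneven change (log2 fold change 3.95, edgeR adjusted p = 0.0716), Cartpt 1.70 (edgeR adjusted p = 0.519) and Sst 2.82 (edgeR adjusted p = 0.739), while Gal was at 0.04. Pgr and Greb1, classical estrogen targets, had too few UMIs in Nkx2-1+ neurons to be tested.

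Esr1 itself, whose deletion the 3′ counts cannot read, stood in Nkx2-1+ neurons at 47.8, 120 and 22.3 CPM with oil and 95.4, 65.5, 25.4, 175 and 117 CPM with tamoxifen in wild-type, and at 90.6, 61.2, 29.4 and 82.0 CPM and 78.6, 40.2 and 109 CPM in Esr1 cKO. The genotypes overlapped throughout (log2 fold change -0.33, SE 0.41, edgeR adjusted p = 0.993). Esr1 was detected in 46 of 269 wild-type Nkx2-1+ neurons (17.1%) and in 46 of 279 of Esr1 cKO (16.5%), and in 119 of 807 (14.7%) and 84 of 837 (10.04%) matched neurons.

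Tamoxifen was compared with oil in the same fit. Of 3839 genes, 0 were called in wild-type (0.0%, edgeR, 134 at an unadjusted p under 0.05), 0 in Esr1 cKO (0.0%, 130 unadjusted) and 0 for the interaction (0.0%, 154 unadjusted), and DESeq2 also called 0 in each. Prlr in wild-type, chosen after its values had been seen, stood at 18.9 to 35.9 CPM with oil and 76.2 to 228 CPM with tamoxifen. Its log2 fold change of 2.31 (SE 0.57) did not pass (edgeR adjusted p = 0.764). How many of all genes tested separate these 2 groups was not counted, so the gap between the ranges carries no weight. Tac2 in wild-type had 3.84 (edgeR adjusted p = 0.764), with overlap between 108 CPM in an oil library and 50.8 CPM in a tamoxifen library. The difference in tamoxifen effect between Nkx2-1+ and matched neurons was called for 0 of 4355 genes in either genotype (0.0%, edgeR, 184 and 132 at an unadjusted p under 0.05). With the lower filter of 30 UMIs it was called for 3 genes in wild-type and 2 in Esr1 cKO, and with no filter for 7 and 12.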

How the data were processed

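The authors deposited, for each of 16 mice, UMI counts per gene symbol and cell barcode, as whole numbers without normalization and with replicates kept apart. The submitters' processing notes name STAR 2.6, Seurat 3.6.1 and the mm10 build, and the annotation and counting program are not given in the sources used here. Whether the counting used strand is likewise not given, so overlapping genes cannot be told apart.

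Kept barcodes had over 200 and below 4000 genes, with mt- genes taking under 15% of their UMIs, and doublets were not called. A class of other cells needed 3 of its own markers. Each Nkx2-1+ neuron was matched without reuse to 3 neurons of its library by total UMIs. UMIs were summed per library and tested with edgeR 4.0.16 (limma 3.58.1, R 4.3.3), using quasi-likelihood tests, TMM, filterByExpr and Benjamini-Hochberg adjustment over all genes tested at a threshold of 0.05. The comparison with matched neurons had the library as a block. The comparison of the 4 groups used libraries with at least 10 Nkx2-1+ neurons. Shares of cells were tested by exact permutation over mice in Python 3.11.15 (scipy 1.17.1, numpy 2.4.6, pandas 2.3.3), with transmitter transcripts counted from 1 UMI and peptide transcripts from 3. All tests were two-sided. CPM is the count per 1000000 UMIs of the cells summed.

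Genes named against matched neurons had at least 30 UMIs, passed the threshold and moved the same way in at least 12 of 16 libraries, the 12 highest and 8 lowest by fold, together with the genes of the lists. 1 gene that the rule picked is not reported here. For the groups they were Esr1, Pgr, Greb1, Nkx2-1, Gal, Tac2, Sst, Pomc, Cartpt and Pdyn and the 3 called genes of largest change whose groups do not overlap. The members and the lists were chosen with earlier results of these data known. Alternatives were DESeq2 1.42.0, its size factors in edgeR, other filters, marker rules and matching ratios, thinning to 500 UMIs, library numbers as a block and leaving out each library. The procedure was tested on simulated data. 1 library is 1 mouse, and p-values measure the spread between mice.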

Additional observations from a re-analysis of the deposited data

Results flagged for a closer look

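Of 48 sets of libraries looked at for a single library far from the rest of its group, 1 was picked out, and chance picks out about 1 in 20 such sets. In Nkx2-1+ neurons of wild-type mice given tamoxifen, Gal, the precursor of galanin, stood at 1210 CPM in the highest library and at 467 CPM in the next of the 5. The gap took up 0.815 of the range of the group. Gal did not pass the test in any comparison of the groups.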

How the results depend on the processing

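Over the named genes and the alternatives other than leaving out a library, 496 values kept their direction and their side of the threshold, 149 kept the direction but no longer passed, 8 newly passed and 15 turned. The counts of genes moved with the filter on low counts, the marker rule and the number of cells. The cause of these moves was not tested. Against matched neurons 141 genes passed, 45 with 1 matched neuron per Nkx2-1+ neuron, 3 with at least 2 Nkx2-1 UMIs, 40 with at least 5 neuronal markers, 1 and 22 without barcodes holding 2 or 3 markers of another class, 707 with the 30 UMI filter, 700 with no filter, 16 after thinning to 500 UMIs, 122 with the 30 UMI filter and without barcodes holding 3 such markers, and 106 to 173 without single libraries. DESeq2 called 116, of which 113 were shared.

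For genotype 12 genes passed, 0 and 4 without barcodes holding 2 or 3 other markers, 1 without Tac2 cells, 19 with the 30 UMI filter, 31 with no filter and 5 to 15 without single libraries. For tamoxifen in wild-type 0 passed, but 3 without the pair of libraries that stood apart and 7 with no filter, for tamoxifen in Esr1 cKO 10 with no filter, and for the interaction 1 with the 30 UMI filter and 7 with none. For the difference between Nkx2-1+ and matched neurons, tamoxifen in wild-type gave 1 with 5 markers, 3 with the 30 UMI filter and 7 with none (0 to 1 without single libraries), tamoxifen in Esr1 cKO 2 and 12 (0 to 1), and genotype 2 without barcodes holding 3 other markers, 1 and 11. The Slc17a6-only share was 11.8 points higher without barcodes holding 2 other markers (adjusted p = 0.0858, exact permutation) and 13.1 to 14.9 without single libraries, and the GABA-only share -9.44 with 1 matched neuron (adjusted p = 0.217, exact permutation) and -14.7 to -11.6.

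Some signs turned. With the 30 UMI filter and without barcodes holding 3 other markers, Col23a1 was at -0.40, Sox9 -1.51, Hbb-bs 0.67, Crip1 0.20, Igfbp7 0.38, Mobp 0.20 and Nr4a1 0.54, and with 5 markers Bsg was at 0.088. By genotype Gal was at -0.10 with 5 markers, -1.66 and -0.61 without barcodes holding 2 or 3 other markers, -1.04 without Tac2 cells, -0.15 with the block and -0.28 to 0.52 without single libraries, and Esr1 at -0.57 to 0.19. Tac2 for tamoxifen in wild-type was at -1.14 and Sst at 0.0 without barcodes holding 2 other markers. Nkx2-1 over all neurons was at -0.0275 for tamoxifen in Esr1 cKO with the block (-0.14 to 0.16 without single libraries) and -0.13 to 0.0358 for genotype. The share of neurons with Nkx2-1 for Esr1 cKO minus wild-type with tamoxifen was -0.0339 without the libraries that stood apart (-0.0339 to 1.39 without single libraries), and for tamoxifen in Esr1 cKO it was -0.899 to 0.527.

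The library numbers, taken in successive sets of 4, did not consistently pair the samples. Pairs of libraries of different groups in the same set correlated at a mean of 0.060, from -0.284 to 0.881. Pairs in different sets had a mean of -0.014, from -0.739 to 0.586. The labels do not tie the numbers to dissection days. With that block 11 genes differed by genotype, 9 of them shared, and Plagl1, Hsph1 and Hs6st2 no longer passed (edgeR adjusted p = 0.0883, 0.0883 and 0.0804). The group fit with at least 2 Nkx2-1 UMIs was not run, because too few libraries had 10 such neurons. The 30 UMI filter, the robust spread and the removal of Tac2 cells, of barcodes with 3 other markers and of the libraries that stood apart were chosen after seeing the data. A single cell showed Nkx2-1 mostly as 1 UMI, so matched neurons may hold cells that use the gene.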
